A study of Mus musculus with 4 samples.

Results

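Genes of the choroid plexus epithelium were followed over time after contextual fear conditioning: Ttr, Kcne2, Sostdc1, Folr1, Aqp1, Kl, Ecrg4, Clic3, Pcolce2 and Foxj1. They are 10 of the 10698 genes that the array's annotation named, and 12 of its 16281 spots carried them. Kl had 3 spots and each of the other genes had 1. Of 48 possible values, 12 spots on 4 arrays, 47 were measured. The genes were chosen by their known link to this epithelium with their log ratios on these arrays in view, above all those at 1 h. Their log ratios are therefore described, and a test is given only for the later times.

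The choroid plexus is a folded epithelium inside the brain ventricles that secretes cerebrospinal fluid. Its cells pump ions and water from blood to ventricle, carry folate and thyroid hormone into the fluid, and release signalling proteins into it. Most of the genes described here are known as abundant or enriched transcripts of that epithelium. Foxj1 is a master regulator of motile cilia, which ependymal cells carry as well.

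RNA came from the CA1 field of the hippocampus of young male C57BL/6J mice. All animals received MK-801, a blocker of NMDA receptors, at a labelled dose of 300 micrograms per g body weight, a value copied from the labels that is far above the doses usual in mice. The control group, MK, had the drug alone, while the other, MK C+S, had the drug 1 h before conditioning in a chamber with 3 rounds of 2 min followed by a foot shock of 1 s at 0.5 mA. Tissue was sampled 1, 2, 4 or 6 h after the final shock. At each time 1 array compared the groups, the MK RNA carrying the green dye and the MK C+S RNA the red one. Every array ran in this dye orientation, so the effect of a dye and that of conditioning cannot be told apart. No time had a replicate array, so the error of a ratio at a single time could not be estimated. The labels do not say how many animals each RNA came from.

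The deposited values are log ratios, read here as log10 because neither the labels nor the table state a base. Which channel was divided by which is not stated either. Red over green is the custom, and a value above 0 would then stand for more RNA in MK C+S. No intensities were used, so the level of a transcript, including that of markers of CA1 or of choroid plexus, could not be checked in either group. In bulk tissue a ratio also cannot tell a change in the number of cells of a type from a change in RNA per cell. An exact 0 was taken as not measured. This applied to between 7.39% and 22.7% of spots on an array, and the 1 h array had the highest share.

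At 1 h, 8 of the 9 measured genes had at least 1 spot with a positive log ratio past 2-fold. Past 2-fold means 0.301 or more in log10 units. The 9 spots past it lay between 0.40 and 1.501 with a median of 0.67, and the remaining spot of these 8 genes, 1 of 3 for Kl, was at -1.91. Over all measured spots of that array, 5.32% were past 2-fold in the positive direction, 4.14% in the negative and 9.45% in either. Since the genes were chosen with these values known, that contrast describes the choice. Across all 11 measured spots the median was 0.66, with 10 positive and 1 negative.

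Ecrg4, which encodes a secreted peptide precursor of choroid plexus and other epithelia, had the highest value of the set. Its spot was at 1.501 at 1 h and then at -0.18 (2 h), -0.031 (4 h) and -0.27 (6 h). It ranked 2 from the top among 12586 measured spots at 1 h, and it was negative on every later array. The 1 h value is a 31.7-fold ratio if the logs are base 10, 4.49-fold if they are natural and 2.83-fold if they are base 2.

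Among the other secreted proteins, Sostdc1, an inhibitor of BMP and Wnt signals, was at 0.66 at 1 h and then at -0.040 (2 h), 0.067 (4 h) and -0.29 (6 h). Pcolce2, an enhancer of the enzyme that trims procollagen, was at 0.67, -0.037, -0.025 and 0.12 at the same times. These spots ranked 62 and 61 at 1 h, and neither reached 2-fold afterwards in either direction. With base 10 logs the 1 h ratios are 4.61-fold for Sostdc1 and 4.64-fold for Pcolce2.

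The channels and transporters of the set were each past 2-fold in the positive direction at 1 h and not later. Kcne2, a potassium channel subunit of the apical membrane, was at 0.71 at 1 h and then at -0.077 (2 h), -0.017 (4 h) and 0.066 (6 h). Clic3, of the intracellular chloride channel family, was at 0.73, -0.30, 0.24 and 0.055. Kcne2 was flat after 1 h, whereas Clic3 came close to 2-fold in the negative direction at 2 h and then lay above 0.

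Folr1, the folate receptor that moves folate across this epithelium, was at 0.49 at 1 h and then at 0.13 (2 h), 0.044 (4 h) and -0.20 (6 h). Aqp1, the water channel of the apical membrane, was at 0.40, 0.013, 0.20 and 0.28. Aqp1 was the only spot of the 12 that was positive on all 4 arrays, and at 6 h it lay just under 2-fold. Its 1 h value of 2.54-fold was also the lowest among the 9 high spots, and the next spot below it, that of Foxj1, was far from the limit at 0.027.

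**Figure D1:**
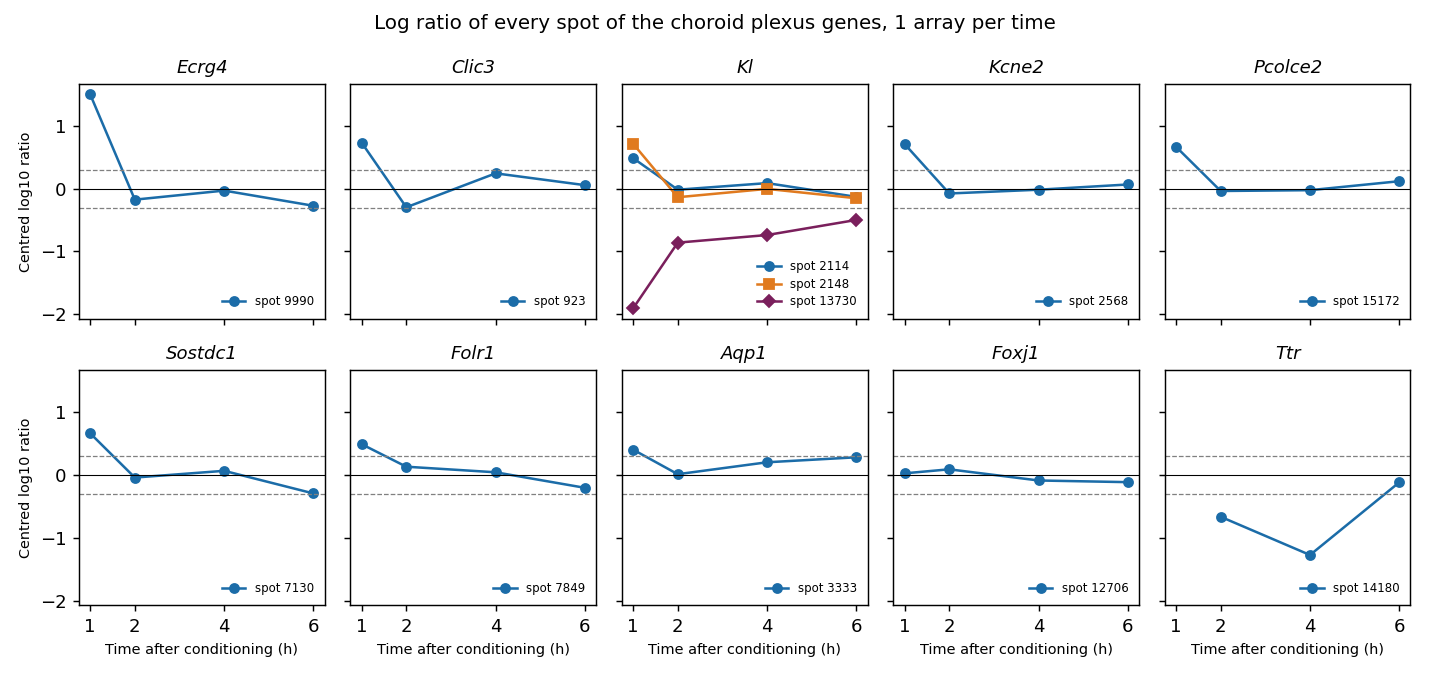
Centred log10 ratio (MK C+S over MK, likely direction) of every spot of the 10 genes on the y axis against hours after conditioning on the x axis, with 1 array per time and no error bars because no time has a replicate. Dashed lines mark 2-fold; 9 spots lie between 0.40 and 1.501 at 1 h and none of these is past 2-fold later, while 1 Kl spot and Ttr lie below 0 wherever they were measured.

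Kl encodes klotho, a membrane protein that serves as a co-receptor for a phosphate-regulating growth factor and is abundant in choroid plexus and kidney. Its 3 spots did not give 1 pattern. Spot 2114 was at 0.49, -0.017, 0.088 and -0.13 at 1, 2, 4 and 6 h, and spot 2148 at 0.71, -0.14, -0.0037 and -0.15. Spot 13730 was at -1.91, -0.86, -0.74 and -0.50. The first pair followed the other genes, whereas the third was negative on all 4 arrays and ranked 12571 of 12586 at 1 h.

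Spots 2148 and 13730 are annotated with the same transcript record, so the gap between them is not one between annotated genes. The SD over the 3 Kl spots was 1.45 at 1 h, while the SD pooled over the 1629 genes with 2 or more measured spots was 0.225. At 6 h the Kl spots were closer, with an SD of 0.205 beside a pooled 0.329. The average over spots, -0.24 at 1 h, therefore stands for none of the 3, and their median was 0.49.

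Ttr, the carrier of thyroid hormone and retinol, is the transcript for which this epithelium is best known. It had no measured ratio at 1 h, and its single spot then gave -0.66 (2 h), -1.27 (4 h) and -0.12 (6 h). Ttr was thus below 0 on each array that measured it, at a ratio of 4.62-fold at 2 h and 18.7-fold at 4 h in base 10. The other secreted protein genes were between -0.18 and 0.067 at those 2 times.

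Foxj1, the transcription factor of motile cilia, stayed near 0 throughout, at 0.027 (1 h), 0.091 (2 h), -0.087 (4 h) and -0.11 (6 h). It was the only measured gene of the 10 with no spot past 2-fold at 1 h.

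The high values of 1 h were not seen on the later arrays. At 2 h the 12 spots had a median of -0.059 and ranged from -0.86 to 0.13. At 4 h the median was -0.010 with a range of -1.27 to 0.24, and at 6 h it was -0.12 with a range of -0.50 to 0.28. No spot was past 2-fold in the positive direction at 2, 4 or 6 h, where 2.91%, 2.94% and 12.7% of all measured spots were. In the negative direction 2, 2 and 1 of 12 were, against 5.03%, 5.03% and 12.8% of all spots, and these were the Ttr spot and Kl spot 13730 at 2 and 4 h and Kl spot 13730 alone at 6 h. In either direction the shares of all spots were 7.94%, 7.97% and 25.4%.

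A high value at 1 h was rarely kept by any spot on the array. Of all 669 spots past 2-fold in the positive direction at 1 h, 641 were measured at 2 h. Of them, 40 (6.24%) were past 2-fold in that direction again, where 2.91% of all spots were. At 4 h this held for 27 of 644 (4.19%, beside 2.94% of all spots) and at 6 h for 58 of 630 (9.21%, beside 12.7%). The share was thus above that of all spots at 2 and 4 h and below it at 6 h. Past 2-fold in the negative direction were 23 at 2 h (3.59%) and 24 at 4 h (3.73%), where 5.03% of all spots were at each time. At 6 h 161 were (25.6%, where 12.8% of all spots were). The 9 high spots of the choroid plexus genes, with 0 past 2-fold at each later time, are part of those 669. Their medians of -0.040, 0.044 and -0.13 at 2, 4 and 6 h stood beside medians of 0.042, 0.025 and -0.090 for all 669.

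**Figure D2:**
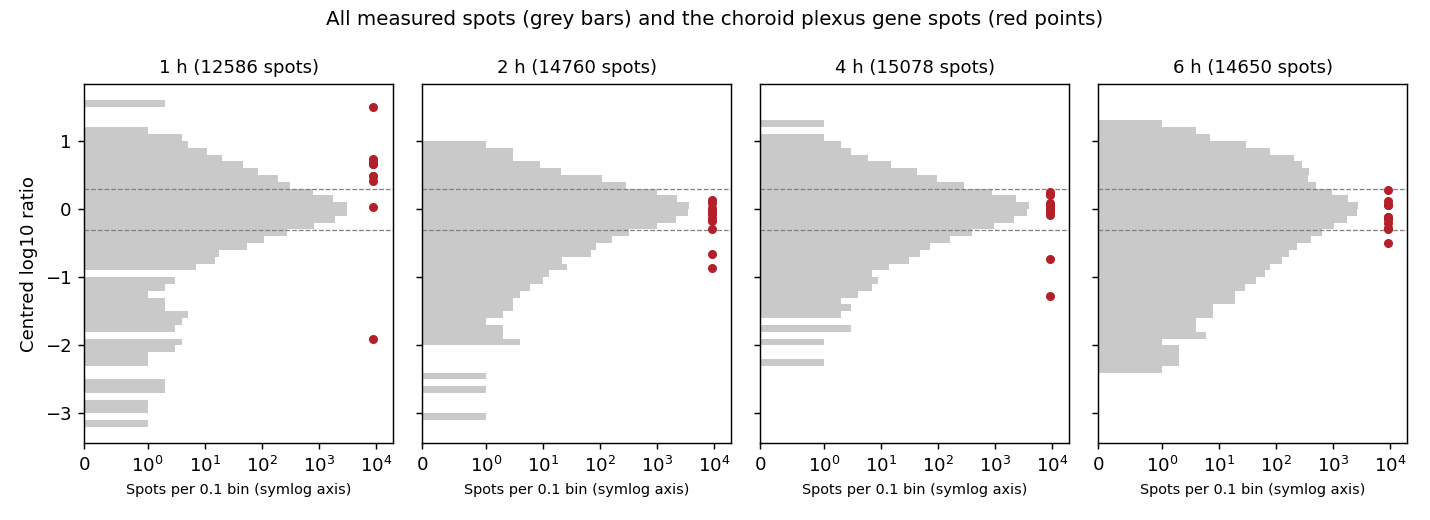
Distribution of all measured spots per array (grey bars, number of spots per 0.1 bin on a symlog x axis) against the centred log10 ratio on the y axis, with the choroid plexus gene spots as red points placed at 1 fixed x position. At 1 h the red points lie mainly in the upper tail, with a median of 0.66, and at 2, 4 and 6 h they lie around 0 with the Ttr and Kl exceptions.

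The mean over 2, 4 and 6 h was tested across all spots with limma, leaving out the 1 h array in which the genes stood out. The genes were chosen with the log ratios of these arrays in view, including those of Ttr at these times. No result of this test for the 12 choroid plexus spots is therefore independent of the choice. Of 13911 spots measured on all 3 arrays, 0 passed at an adjusted p under 0.05 (0% of spots), and 0 of the 12 choroid plexus spots did. Without adjustment 1536 spots (11%) had a p under 0.05, among them 2 of the 12. These were Kl spot 13730, with a mean of -0.70 ± 0.18 (SD, n = 3 arrays) and limma's adjusted p = 0.344, and Ttr, with -0.68 ± 0.58 (SD, n = 3 arrays) and limma's adjusted p = 0.443. Both were negative on 3 of 3 arrays.

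The test rested on the 6 h array. Without it, 50 of 14469 spots passed, Kl spot 13730 (mean -0.80, limma's adjusted p = 0.0138) and Ttr (mean -0.97, limma's adjusted p = 0.0456) among them. Over all alternatives tried, the lowest adjusted p of any choroid plexus spot ranged from 0.0138 to 0.774. The means of the 9 spots that were high at 1 h lay between -0.16 for Ecrg4 and 0.17 for Aqp1 over the later times, with limma's adjusted p of 0.481 and 0.482 for these 2. Misses of the threshold with 3 arrays do not show that a ratio was 1.

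Position on the array was examined because the deposited order of spots may follow the slide. For the 9 high spots, 72 of the spots within 5 rows on either side were measured at 1 h. Of these, 2 (2.78%) were past 2-fold in the positive direction, and the neighbours' medians lay between -0.11 and 0.098. Both of the high neighbours lay beside Clic3, whose neighbours ranged from -0.29 to 0.78. The neighbours of Kl spot 13730 lay between -0.026 and 0.10 at 1 h. Whether the spot order matches the printed layout was not tested.

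The sequences just upstream of these genes are shown because several of the genes were high together at 1 h. RefSeq promoters (build GRCm38.p6) were searched for 6 of the 10 genes, with 7 transcription starts, 2 of them for Kcne2. Sostdc1, Folr1 and Foxj1 had no promoter entry in the source used. Ttr was left out of the search, so the motif counts of the set do not cover it. In the 250 bases before each start, 4 motifs were searched. The first was TAATCC, which is bound by OTX2, a transcription factor needed for choroid plexus. The second, GTAAACA, is bound by forkhead factors such as FOXJ1. The third, GTTGCC, is part of the sequence bound by RFX factors, which act on cilia genes. These were searched on both strands, and the TATA box, TATAAA, on the strand of the gene. The letters of GTTGCC or its reverse complement occurred before 4 of the 7 starts, those of Aqp1, Clic3 and Pcolce2 and 1 of the 2 of Kcne2, and in 10.4% of all 32851 promoter windows of that length. The other motifs occurred before 0 of the 7, and in 6.25%, 3.17% and 7.59% of all windows for the OTX2, forkhead and TATA letters. No match overlapped another. The 4 windows follow 5′ to 3′, with the match to the RFX letters in capitals, reversed and complemented in Kcne2 and Pcolce2:
Kcne2 promoter, chr16:92292139-92292388, plus strand: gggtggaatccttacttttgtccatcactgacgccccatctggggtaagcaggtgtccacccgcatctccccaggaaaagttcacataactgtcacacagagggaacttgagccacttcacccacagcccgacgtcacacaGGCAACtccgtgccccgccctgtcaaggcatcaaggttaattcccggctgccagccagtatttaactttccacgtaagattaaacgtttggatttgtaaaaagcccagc
Aqp1 promoter, chr6:55336049-55336298, plus strand: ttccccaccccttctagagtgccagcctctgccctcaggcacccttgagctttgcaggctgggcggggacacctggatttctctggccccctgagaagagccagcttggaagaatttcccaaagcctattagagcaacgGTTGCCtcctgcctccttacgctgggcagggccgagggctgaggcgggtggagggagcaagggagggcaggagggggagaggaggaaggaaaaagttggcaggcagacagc
Clic3 promoter, chr2:25456593-25456842, plus strand: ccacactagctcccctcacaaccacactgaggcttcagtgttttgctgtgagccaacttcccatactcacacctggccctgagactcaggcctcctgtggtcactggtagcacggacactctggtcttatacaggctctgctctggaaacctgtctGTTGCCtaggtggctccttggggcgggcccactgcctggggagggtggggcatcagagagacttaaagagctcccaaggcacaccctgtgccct
Pcolce2 promoter, chr9:95637378-95637627, plus strand: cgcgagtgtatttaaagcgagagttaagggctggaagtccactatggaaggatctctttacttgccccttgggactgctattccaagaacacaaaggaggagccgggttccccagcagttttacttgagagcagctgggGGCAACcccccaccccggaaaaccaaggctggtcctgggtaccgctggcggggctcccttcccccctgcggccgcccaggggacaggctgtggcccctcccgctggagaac

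The capitals begin 109 bases before that start of Kcne2, 111 before that of Aqp1, 94 before that of Clic3 and 111 before that of Pcolce2. These are matches of letters only. The Ecrg4 and Kl windows, which include the highest and lowest 1 h spots of the set, held none of the 4 motifs. In GC content the 7 windows ran from 48.0% to 66.8%, around a median of 52.4% over all windows.

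Among other genes listed for the same epithelium, a minority was high at 1 h. A list of 50 such genes, of which the array named 30, gave 34 measured spots at 1 h with a median of 0.0096, 18 positive and 16 negative. Yet 8 of the 34 spots (23.5%) were past 2-fold in the positive direction, where 5.32% of all spots were, and 1 was in the negative, where 4.14% of all were. The negative spot was that of Aqp4, at -0.32, named after its value was seen. Aqp4 is not specific to this epithelium. How much RNA of the listed genes came from other cells of the tissue was not tested, and this limits what the list's median stands for. Some of the list's 1 h values, those of Igf2 and Igfbp2 among them, were known when it was written. Without these 2 genes, 5 of 31 spots (16.1%) were past 2-fold in the positive direction.

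By the mean of a gene's spots, the largest 1 h values in that list were those of Rdh5, a retinol dehydrogenase, at 0.72, the collagen gene Col8a1 at 0.56, the lipopolysaccharide-binding protein gene Lbp at 0.54 and the growth factor gene Igf2 at 0.54. At 2 h Rdh5 was at 0.057, Lbp at 0.26 and Igf2 at 0.16, and Col8a1 was not measured. The 2 spots of Igfbp2, a binding protein of insulin-like growth factors, were at 0.54 and 0.35 at 1 h and 0.032 and 0.020 at 2 h. Other genes of the list are named after their values were seen. Perp, at 0.33, and Abca4, at 0.32, were also past 2-fold in the positive direction at 1 h, and Car14 was at 0.20. Over the whole list, 18 measured spots were positive and 16 negative. Some listed genes that this epithelium carries had 1 h values close to 0. The tight junction gene Cldn2 was at -0.086, the anion exchanger Slc4a2 at -0.016 and the serotonin receptor Htr2c at -0.015 and -0.0059 over its spots. Of these, Htr2c is also transcribed in neurons. In the mean over 2, 4 and 6 h, 0 spots of this list or of those below passed limma's test in either direction, as 0 of all spots did.

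Genes of motile cilia and ependyma, which like Foxj1 mark ciliated cells of the ventricle wall, had a median of -0.0080 at 1 h over 22 measured spots. Of these spots, 2 were past 2-fold in the positive direction and 1 in the negative, against the same 5.32% and 4.14% of all spots. The 2 positive ones were 1 of 2 spots of Spag16, a gene of the axoneme named after its values were seen, at 0.43 with its other spot at -0.15, and 1 of 2 spots of the factor Rfx2, at 0.37 with its other spot at 0.0092. By the mean of a gene's spots, the largest values were -0.33 for Ccdc39, which is needed to assemble the cilium's axoneme, -0.25 for Cfap43, 0.19 for Rfx2, and -0.17 for Mns1. Leptomeningeal genes, from the membranes that cover the brain, had a median of -0.029 over 30 spots, with 3 past 2-fold in the positive direction and 0 in the negative, beside the same shares of all spots. The matrix gene Mgp was at 0.44, the transcription factor gene Foxc1 at 0.32, the proteoglycan gene Ogn at 0.32 and the retinoic acid binding protein gene Crabp2 at 0.22.

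Genes of CA1 pyramidal neurons had a median of 0.0079 over 10 spots at 1 h. The labels name the CA1 field and no cell type. Of these, 1 was past 2-fold in the positive direction and 2 in the negative, or 3 of 10 where 9.45% of all spots were. Hpca, a calcium sensor, accounted for the negative ones, at -0.49 and -0.40 with a mean of -0.44. By gene means the other largest values were those of Wfs1, the spot past 2-fold in the positive direction, at 0.32, Ccn3 at -0.11 and Pou3f1 at 0.11. The part that other cell types had in the 1 h values was not tested.

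**Figure D3:**
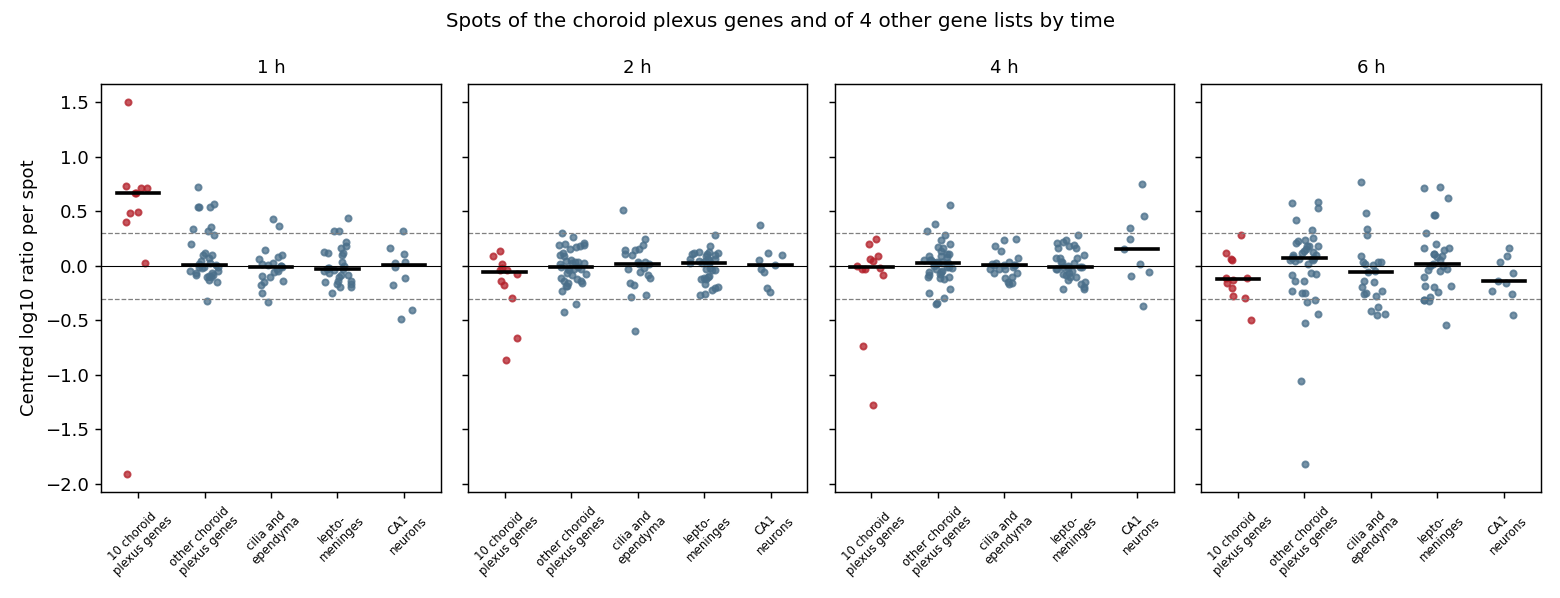
Centred log10 ratio of each measured spot (points) and the median (black bar) for the 10 choroid plexus genes and 4 other gene lists at 1, 2, 4 and 6 h; dashed lines mark 2-fold. At 1 h the median is 0.66 for the 10 genes, which were chosen with these values in view. It is 0.0096 for other genes listed for choroid plexus, -0.0080 for cilia genes, -0.029 for leptomeningeal genes and 0.0079 for CA1 genes.

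Genes outside the set with the most similar time course were looked for on all arrays. Likeness was the Euclidean distance over the 4 arrays, in log10 units, among 10031 named spots measured on all of them. The closest to the median profile of the 11 fully measured choroid plexus spots were Olfr888 (0.111), Nox4 (0.118), Il7 (0.153), Hdac9 (0.155) and Kcnk7 (0.158). The choroid plexus spots, which are part of that median, lay between 0.111, for Kl spot 2148, and 2.82, for Kl spot 13730. Closest to Kcne2 alone were A930009A15Rik (0.121), Klra9 (0.124), Msln (0.126), Ccl4 (0.143) and Cemip2 (0.153), and Pcolce2 was nearer than any of these at 0.0796. Kcne2 and Pcolce2 were both chosen with their 1 h values in view, and the distance includes that array. Their closeness is therefore partly set by the choice.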

How the data were processed

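Two-channel arrays of CA1 RNA were analysed, 1 per time (1, 2, 4 and 6 h), grouped by the labelled time. The authors deposited 1 log ratio per spot, read as log10 (the base, centring method and direction are unknown, and each deposited column had a median of 0). The scanner and how the authors corrected and normalized the signals were not given in the sources used here. Exact zeros were taken as not measured, and each array was centred on the median of its measured spots. A platform annotation named 13738 spots with 1 gene, 52 with several (left out) and left 2491 unnamed. All members were named with every spot, as were the 4 genes per list with the largest absolute 1 h value and the 5 nearest profiles.

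Members and lists were chosen with earlier results of these data known. Single arrays were counted at 2-fold with no p-value. The mean over 2, 4 and 6 h was tested per spot with limma 3.58.1 (lmFit, eBayes, R 4.3.3), two-sided, with Benjamini-Hochberg adjustment over all spots at 0.05. The error is the spread between times. On simulated data of 13911 spots it called 40 of 100 shifted by 0.6 log10 units, 80 of 100 shifted by 1.2 and 5 of 13711 unshifted. The simulated errors were normal and independent, with the SDs of the real spots in shuffled order. Errors shared by the spots of an array were not simulated, so these rates may not hold for the real arrays. Alternatives covered size threshold, log base, zeros, centring, scaling, spot order, spot averaging, array weights, filters and left-out arrays or genes.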

Additional observations from a re-analysis of the deposited data

Results flagged for a closer look

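The median of the choroid plexus spots was positive at 1 h (0.66) and negative at 2 h (-0.059), 4 h (-0.010) and 6 h (-0.12). Single spots past 2-fold at 1 h also had the opposite sign later. Of the 9 high choroid plexus spots, 7, 4 and 5 were negative at 2, 4 and 6 h. Among all 669 spots past 2-fold in the positive direction at 1 h, 40.1%, 43.9% and 59.2% of those measured were negative at these times. Centring puts 50% of all measured spots below 0 on each array, so a later change of sign is common by construction. The share among the 669 was below 50% at 2 and 4 h and above it at 6 h. The most negative later value was -0.30 for Clic3, -0.077 for Kcne2 and -0.037 for Pcolce2, each at 2 h. At 6 h it was -0.29 for Sostdc1, -0.27 for Ecrg4, -0.20 for Folr1 and -0.13 and -0.15 for Kl spots 2114 and 2148. Each time is 1 array, so these differences between times were not tested.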

How the results depend on the processing

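The 1 h median of the choroid plexus spots stayed positive under all 16 alternatives run for it, between 0.58 and 0.72. Because the genes were chosen with their 1 h values in view, its sign was largely set by the choice. The medians at 2, 4 and 6 h stayed negative and moved by less than the SD between spots of a gene on the same array. Leaving out each gene in turn gave medians of 0.58 to 0.67 at 1 h, -0.077 to -0.040 at 2 h, -0.017 to -0.0037 at 4 h and -0.13 to -0.11 at 6 h. The number of spots past 2-fold in either direction at 1, 2, 4 and 6 h, 10, 2, 2 and 1, depended on the log base. Read as log2 it was 2, 0, 1 and 0, and read as natural logs 5 at 1 h, 1 at 2 h and 0 at 6 h. The 2 at 1 h with log2 were Ecrg4, which was positive, and Kl spot 13730, which was negative. At 1.5-fold it was 4 at 4 h and 5 at 6 h. With gene means it was 1 at 4 h and 0 at 6 h, and with a running median over 51 spots removed 2 at 6 h. The share of all spots was counted only for 2-fold with base 10 logs. The counts at other settings therefore have no such share beside them. Without the low Kl spot, an alternative chosen after seeing the data, it was 1, 1 and 0 at 2, 4 and 6 h. Leaving out each of the 3 later arrays gave between 0 and 50 spots passing limma, and between 0 and 2 of the choroid plexus spots; the 6 h array decided this. No paired analysis was possible because each time has 1 array and no replicate numbers. Signal over background could not be examined.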
